A study of Mus musculus with 6 samples.

Results

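Melanocytes are the pigment cells of skin and hair, and 10 genes that mark them and their work were followed through whole skin of JunBΔep and control mice: Tyr, Tyrp1, Dct, Mlana, Slc45a2, Oca2, Slc24a5, Gpr143, Mc1r and Mitf. The members were taken by gene symbol from a table of 23951 genes, which listed all 10, and each averaged 0.1 FPKM or more across the libraries, the level required for testing, as did 17021 genes in all. Of these 10, Slc45a2, Oca2 and Gpr143 reached that level only through 2 libraries. FPKM give the fragments of a gene relative to the length of its transcript and to all mapped fragments of the library. Poly(A) RNA of whole skin was sequenced from 3 mice of genotype JunB +/+, called controls, and 3 of genotype JunB dep, called JunBΔep, all littermates of strain C57Bl/6 aged 6 to 7 months. In the JunBΔep mice a keratin 5-driven Cre is meant to delete Junb in the cells of the keratin 5 lineage, the keratinocytes of epidermis and follicles, and their skin was taken from lesions. Melanocytes come from the neural crest and are not a keratin 5 lineage, so they are not the cells in which the gene was to be deleted. Neither the body site nor the hair cycle stage of the skin is stated in the sources used here, nor whether the controls carry a floxed Junb allele. Both sexes were used in the study.

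Melanin is made in melanosomes, organelles that melanocytes pass on to keratinocytes. The hormone α-MSH activates the receptor Mc1r, which raises cAMP, and cAMP raises Mitf, the transcription factor that turns on the pigment enzymes through sites with the core letters CATGTG. In the haired skin of mice most melanocytes sit in the hair follicles and make pigment only while a hair is growing, so follicles at rest hold little melanin synthesis. C57BL/6 mice are black because they do not make functional agouti protein, the antagonist of Mc1r.

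The start regions of the 3 enzyme genes, whose levels had the same highest libraries, are printed whole because they show the letters through which Mitf is known to act. They run from 250 bases before to 50 bases after the RefSeq start on GRCm38.p6, 5′ to 3′ along the gene, and capitals mark CATGTG on either strand.
Tyr, chr7:87493463-87493762, minus strand: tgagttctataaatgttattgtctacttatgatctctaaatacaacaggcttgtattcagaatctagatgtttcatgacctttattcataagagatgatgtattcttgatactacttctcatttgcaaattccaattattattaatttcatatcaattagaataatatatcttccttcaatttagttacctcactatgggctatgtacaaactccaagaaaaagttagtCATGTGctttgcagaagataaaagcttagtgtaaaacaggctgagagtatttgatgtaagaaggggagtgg
Tyrp1, chr4:80833963-80834262, plus strand: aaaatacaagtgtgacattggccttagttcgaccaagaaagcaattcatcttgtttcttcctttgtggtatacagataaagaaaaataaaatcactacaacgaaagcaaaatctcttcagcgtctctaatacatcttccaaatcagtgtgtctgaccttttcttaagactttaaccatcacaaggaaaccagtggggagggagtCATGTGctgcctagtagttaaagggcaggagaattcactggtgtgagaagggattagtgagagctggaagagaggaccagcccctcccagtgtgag
Dct, chr14:118052197-118052496, minus strand: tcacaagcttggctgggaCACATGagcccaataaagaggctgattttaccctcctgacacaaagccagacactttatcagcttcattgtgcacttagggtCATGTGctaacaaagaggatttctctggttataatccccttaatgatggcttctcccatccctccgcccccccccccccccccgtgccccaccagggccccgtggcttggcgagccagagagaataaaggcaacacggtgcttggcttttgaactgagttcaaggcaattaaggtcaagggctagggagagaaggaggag
Counted from the start, with -1 as the base before it, CATGTG began at -21 in Tyr, at -46 in Tyrp1 and at -150 in Dct, each time directly after a T, and Dct held another copy on the other strand at -232.

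Such windows were at hand for 7 of the 10 members, and there were none for Mlana, Slc45a2 and Gpr143. These members had 9 windows, 3 of them at Mitf, and 6 of the 9, each of another member, held CATGTG on either strand, as did 14.2% of the 32851 windows of all genes and 9.64% of those of the genes tested. TCATGTG, which contains the former, occurred in 5 of the 9 windows and in 3.77% of all windows. The sites of the other 3 genes are printed with 15 bases on either side, with capitals as before, and that of Mitf is shown because cAMP acts on Mitf through the letters TGACGTCA, capitals there.
Slc24a5, chr2:125068099-125068134, plus strand: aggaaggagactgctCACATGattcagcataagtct
Oca2, chr7:56239558-56239593, plus strand: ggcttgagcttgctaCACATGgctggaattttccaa
Mc1r, chr8:123407016-123407051, plus strand: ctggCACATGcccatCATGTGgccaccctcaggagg
Mitf, chr6:97991615-97991652, plus strand: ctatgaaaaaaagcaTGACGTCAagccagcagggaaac
Mc1r held CATGTG on each strand within 1 stretch. TGACGTCA was found at 1 of the 3 starts of Mitf, the most downstream, which is that of the melanocyte form, and in 1.79% of all windows. CACGTG, another letter string that Mitf can bind, was in 0 of the 9 windows and in 7.15% of all windows. TGANTCA, with any base at N, is a loose form of the string that AP-1 dimers such as those with JunB bind. It was in 1 of the 9 windows, that of Slc24a5, at -9, and in 7.81% of all windows. In Slc24a5 it read TGATTCA, and whether AP-1 dimers bind that form was not tested. These matches are strings of letters and no measurement of binding.

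The FPKM values summed to 481078 to 630363 per library and were used as deposited. The number of reads is unknown, and the replicates are 3 mice per genotype. Junb itself had 56.9 to 72.4 FPKM in the controls. The libraries labelled JunBΔep had 129.6 FPKM (replicate 0), 42.8 FPKM (replicate 1) and 28.0 FPKM (replicate 2). Replicate 0 thus goes against its label, in a tissue that also holds cells in which Junb is intact, and results are also given without it.

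For all 3 enzymes of melanin synthesis the library labelled JunBΔep replicate 1 held the highest level and control replicate 2 the next. Tyr encodes tyrosinase, which carries out the first and rate-limiting step, and lies on chromosome 7 from 94574910 to 94641943 of the mm9 build. Taking replicates 0, 1 and 2 in turn, here and for all genes that follow, Tyr had 1.13, 1.63 and 4.41 FPKM among the controls, and 2.46, 6.14 and 1.22 FPKM among the libraries labelled JunBΔep, called the JunBΔep mice. The lowest and the highest JunBΔep values enclose those of control replicates 1 and 2. Dct encodes dopachrome tautomerase, which acts after tyrosinase, and lies on chromosome 14 from 118412014 to 118451468. It was at 1.81, 7.02 and 25.4 FPKM in the controls and at 2.39, 42.9 and 4.26 FPKM in the JunBΔep mice. Dct was the most abundant member on average and the one with the widest absolute range. Tyrp1, on chromosome 4 from 80480027 to 80497623, encodes a tyrosinase-related protein that stabilizes tyrosinase and helps to make eumelanin. It was at 0.286, 0.802 and 13.6 FPKM in the controls and at 1.30, 15.3 and 0.784 FPKM in the JunBΔep mice. The other 4 libraries reached at most 1.30 FPKM for Tyrp1, whichever the genotype.

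Proteins and transporters of the melanosome had the same order at the top. Mlana, on chromosome 19 from 29772411 to 29782938, encodes a melanosomal protein that helps to mature the fibrils on which melanin is laid down. It was at 2.75, 1.05 and 17.3 FPKM in the controls and at 0.921, 22.8 and 1.24 FPKM in the JunBΔep mice. Slc24a5, an ion exchanger of the melanosome on chromosome 2 from 124893860 to 124914413, was at 0.130, 0.235 and 2.56 FPKM in the controls and at 0.149, 4.50 and 0.453 FPKM in the JunBΔep mice. Slc45a2, on chromosome 15 from 10930476 to 10958988, encodes a transporter that keeps the melanosome's pH suited to tyrosinase. It was at 0.0154, 0.0323 and 1.21 FPKM in the controls and at 0.0375, 1.99 and 0.0640 FPKM in the JunBΔep mice. Oca2, on chromosome 7 from 63495130 to 63791887, encodes a melanosomal chloride channel. It was listed at 0 in control replicates 0 and 1, reached 1.01 FPKM in control replicate 2, and had 0.0358, 1.37 and 0.0153 FPKM among the JunBΔep mice. Slc45a2 and Oca2 were near the bottom of the range in 4 libraries and above 1 FPKM in the other 2, 1 of each genotype.

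The 2 receptors and the transcription factor had the same libraries on top. Gpr143, a receptor in the melanosome membrane whose gene lies on chromosome X from 149216464 to 149243189, was at 0.0139, 0.0292 and 0.730 FPKM in the controls and at 0.0406, 0.842 and 0.0145 FPKM in the JunBΔep mice. Mc1r, on chromosome 8 from 125930982 to 125934642, was at 0.396, 0.276 and 0.865 FPKM in the controls and at 0.116, 1.74 and 0.704 FPKM in the JunBΔep mice. Mitf, on chromosome 6 from 97757052 to 97971352, was at 4.05, 5.62 and 6.90 FPKM in the controls and at 1.68, 7.54 and 4.19 FPKM in the JunBΔep mice. For Gpr143 2 libraries were far above the rest, as for the transporters, whereas Mc1r and Mitf were above 0.1 FPKM in all 6 libraries. The highest control was 2.19 times the next control for Mc1r and 1.23 times for Mitf. For Gpr143 it was 25.0 times, a rough ratio because the next control was at only 0.0292 FPKM. The gene-level value of Mitf covers all its starts and does not separate the melanocyte form from those of other cells. Mc1r overlaps the gene model Gm20388 on its own strand, and Slc24a5 and Mitf overlap Myef2 and Gm15531 on the opposite strand, so reads of these neighbours may be shared where the counting did not use strand.

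**Figure D1:**
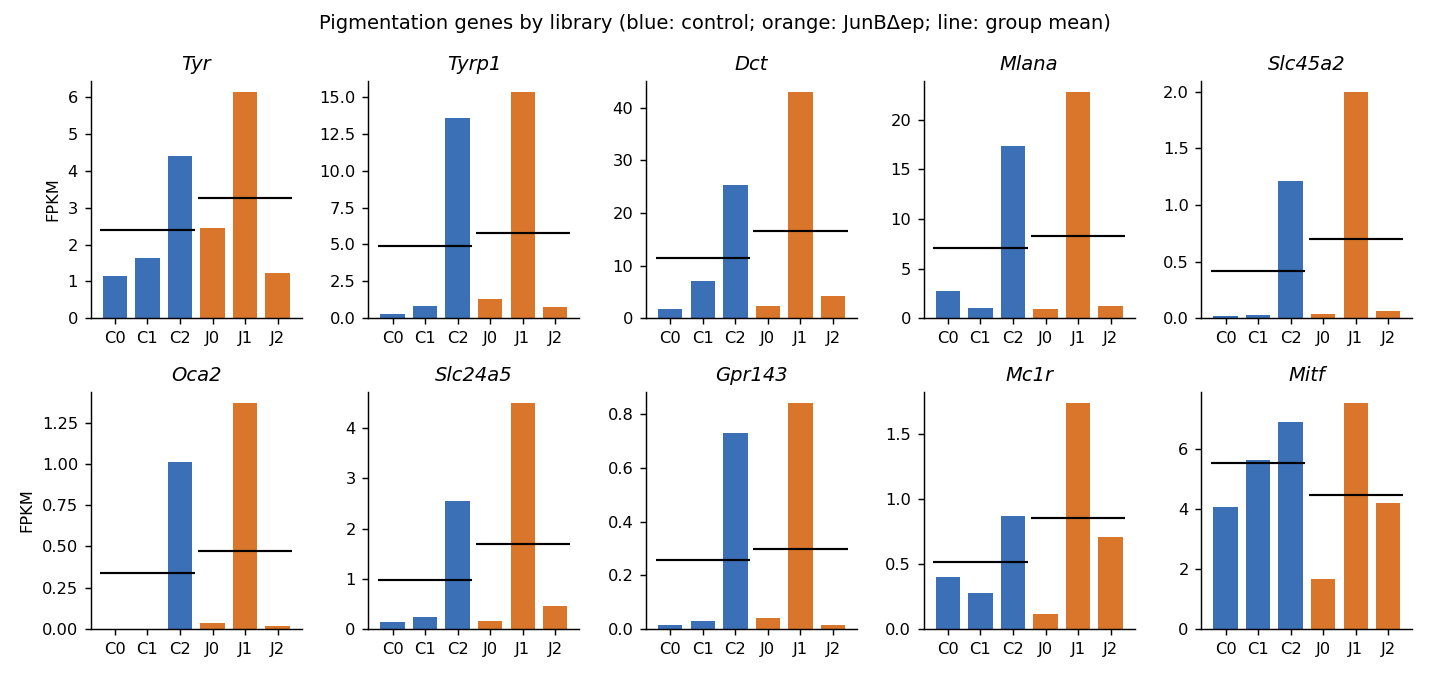
FPKM of each pigmentation gene (y axis, linear from 0, scaled per gene) in the 6 libraries (x axis, C0 to C2 control replicates and J0 to J2 libraries labelled JunBΔep replicates), with a line at the group mean. In all 10 genes the highest bar is J1 and the next is C2, and in Mitf the bars differ least.

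The lowest values lie close to the smallest that these libraries hold. Among 671 genes between 0 and 0.15 FPKM in every library, the commonest ratio to control replicate 0 was 0.877 to 1.05. Only 8.64% to 13.7% of these genes were at it in a library, so it stands only loosely for the libraries' relative scale. Divided by that ratio, Gpr143 was at 1.99, 3.00 and 1.00 times its value of control replicate 0 in control replicate 1 and in the libraries labelled JunBΔep replicates 0 and 2. By the same measure it was at 56.9 times that value in control replicate 2 and at 68.9 times in the library labelled JunBΔep replicate 1. Slc45a2, by contrast, was at 1.99, 2.50 and 4.01 times its value of control replicate 0 in the same 3 libraries, which are not all whole steps. Oca2 has no such values because it was listed at 0 in control replicate 0. With the number of reads unknown, no order can be read among the 4 libraries in which these 3 members were below 0.1 FPKM. Ratios that divide by such a value, given for Gpr143 and Slc45a2, are rough.

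No pigmentation gene passed the test for a difference between the genotypes, and the mice of 1 genotype were spread widely. Values were compared as log2(FPKM + 0.5) with limma over all 17021 genes, and 0 of the 10 members had a Benjamini-Hochberg adjusted p below 0.05, against 1.38% of all genes tested, or 235 genes, all lower in JunBΔep skin. That background was not stable when 1 library was left out. It was 0 genes without any 1 control or without JunBΔep replicate 1, 131 without JunBΔep replicate 0 and 251 without JunBΔep replicate 2. Each of these fits also had fewer libraries, so lost power cannot be told apart from dependence on 1 library. At an unadjusted p below 0.05 the count of members was also 0, against 7.56% of all genes tested, so that in both counts 0 of 10 is near the background. Their adjusted p-values from limma ran from 0.770 to 0.976. In mean FPKM, 9 members were higher in JunBΔep mice and Mitf was lower, but the SD exceeded the mean in both groups for 7 of the 10. Dct, for example, averaged 11.4 ± 12.4 FPKM (SD, n = 3) among the controls, and 16.5 ± 22.9 FPKM (SD, n = 3) among the JunBΔep mice. The values of the groups overlapped in all 10 members, while they did not overlap in 14.8% of all genes tested.

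On the log2(FPKM + 0.5) scale, on which differences of weakly expressed genes come out too small, 8 members had a positive and 2 a negative fold change, with a median of 0.19, beside a median of 0.03 over all genes tested. The members' median turned to -0.14, -0.024 and -0.51 without control replicate 0, control replicate 1 and JunBΔep replicate 1, and to -0.27 with the runs of sample numbers described further on as a block. It was 0.79, 0.56 and 0.51 without control replicate 2, JunBΔep replicate 0 and JunBΔep replicate 2, and 0.31 with a pseudocount of 0.1, so its sign is not a result. Tyrp1 had the highest value, 0.45, with a standard error of 1.40 and a 95% interval from -2.97 to 3.86. Tyr was at 0.33 with an interval from -1.20 to 1.86, and Dct at 0.14 with an interval from -2.98 to 3.25. Mlana was at -0.21 on this scale although its mean FPKM was higher in JunBΔep mice. Mitf had the lowest value, -0.44, with a standard error of 0.50 and an interval from -1.67 to 0.78. The intervals of all 10 members hold 0, and those of the 3 enzymes reach past 1 log2 unit either way, so these data do not show that the genotypes were alike.

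**Figure D2:**
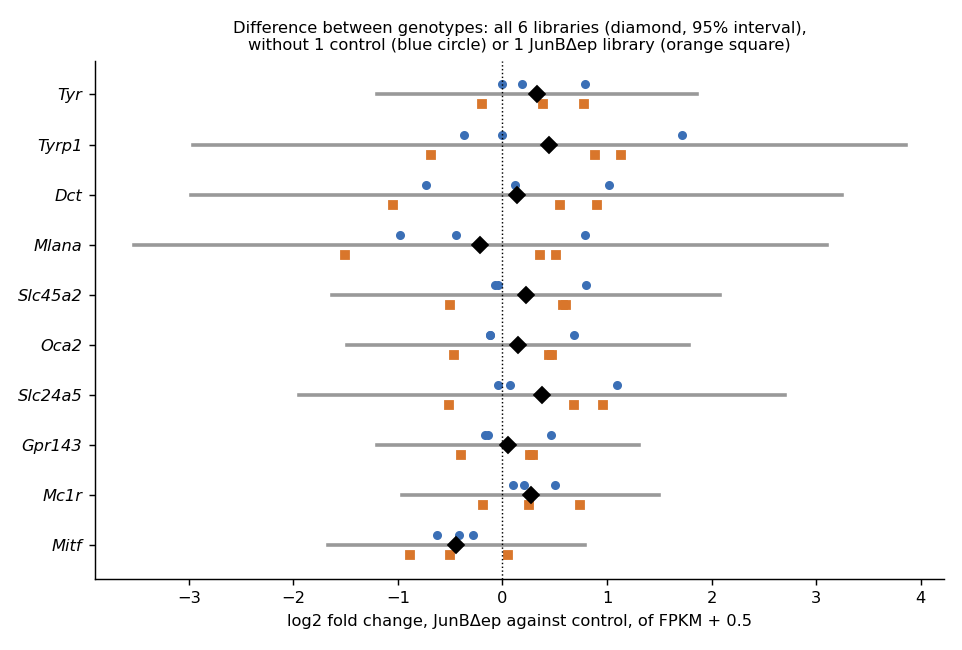
Log2 fold change of each pigmentation gene, JunBΔep against control (x axis), from limma on all 6 libraries (diamond, with its 95% interval) and after leaving out 1 control (blue circle) or 1 JunBΔep library (orange square). For all 10 genes the interval holds 0, and the fits without 1 library lie on both sides of 0.

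The sign of the difference rested on which mouse was counted. Leaving out 1 library at a time changed the sign in each of the 10 members at least once. Without the library labelled JunBΔep replicate 1 the value of Dct was -1.05 and that of Tyrp1 -0.68, and without control replicate 2 they were 1.02 and 1.71. Without the library labelled JunBΔep replicate 0, Dct was at 0.91, Tyrp1 at 0.89 and Mitf at 0.056, and all 10 members were higher. The sample titles fall into 2 runs of numbers, with control replicates 0 and 1 and JunBΔep replicate 0 in the first and the other 3 libraries in the second, and the labels do not say what these runs are. With the runs as a block, 9 of the 10 members were lower in JunBΔep mice, and limma called 0 genes of the whole table. Within the first run the difference of JunBΔep from control was 0.83 for Tyrp1, -0.53 for Dct and -1.28 for Mitf on the log2 scale, and within the second it was -1.64, -0.85 and -0.27. Each run compares 1 library with a pair, so these values have no test.

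The members shared the order of the libraries at the top. All 10 peaked in the library labelled JunBΔep replicate 1, with control replicate 2 next, an order of the top libraries, in either sequence, that 7.83% of all tested genes had. This pattern was read from the values and is a description. Summed over the members, the level was 10.6, 16.7 and 74.0 FPKM among the controls, against 9.13, 105 and 13.0 FPKM among the JunBΔep mice. The spread of a member within its group, as the residual SD of the fit, stood at the 83.8th to 97.8th percentile of all tested genes. Within the controls the highest value was 37.5 times the next for Slc45a2, 16.9 times for Tyrp1 and 3.62 times for Dct. Within the JunBΔep libraries it was 31.1, 11.8 and 10.1 times the next. The ratios of Slc45a2 are rough, since the next values were only 0.0323 and 0.0640 FPKM. For Mitf the ratio within the JunBΔep libraries was 1.80.

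The make-up of the pigment signal also differed between libraries. Dct led in 4 libraries, Mitf in control replicate 0 and Tyr in the library labelled JunBΔep replicate 0. In control replicate 2 and in the library labelled JunBΔep replicate 1 the order by FPKM was Dct, Mlana, Tyrp1, Mitf, Tyr and Slc24a5. Mitf made up 9.33% and 7.17% of the summed level there and 18.4% to 38.3% in the other 4. The ratio of Tyr to Dct was 1.03 in the library labelled JunBΔep replicate 0 and 0.143 to 0.627 in the others. Ordered by their mean FPKM within a genotype, from Dct and Mlana at the top to Oca2 and Gpr143 at the bottom, all 9 pairs of neighbours differed by less than the SD of the higher gene, in both genotypes.

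Genes of the growing hair follicle had the same pair of libraries on top. A list of 23 genes of the hair matrix, inner root sheath and hair shaft was taken, and all 23 had these 2 libraries as their highest, 18 with the library labelled JunBΔep replicate 1 first and 5 with control replicate 2 first. Their summed level was 37.0, 30.6 and 6258 FPKM among the controls, against 536, 10290 and 162 FPKM among the JunBΔep mice. Shh, a signal of the growing hair bulb, was at 0.112, 0.0994 and 3.28 FPKM in the controls and at 0.310, 16.7 and 0.681 FPKM in the JunBΔep mice. Krt71, a keratin of the inner root sheath, was at 0.191, 0.344 and 1318 FPKM in the controls and at 120, 2160 and 32.9 FPKM in the JunBΔep mice. Limma called 0 of the 23 hair genes, and 0 had an unadjusted p below 0.05. Their median log2 fold change was 1.84, with all 23 positive, and Krt73, Krt81 and Krt85 were listed at 0 in at least 1 library. This median rested on single libraries. Without JunBΔep replicate 1 it was 0.073, with 12 genes positive and 11 negative. It was 0.61 and 0.55 without control replicates 0 and 1, 4.52 without control replicate 2, 2.07 and 3.44 without JunBΔep replicates 0 and 2, and 0.39 with the runs of sample numbers as a block. The part of follicles or growing hairs in the levels of the pigmentation genes was not tested.

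**Figure D3:**
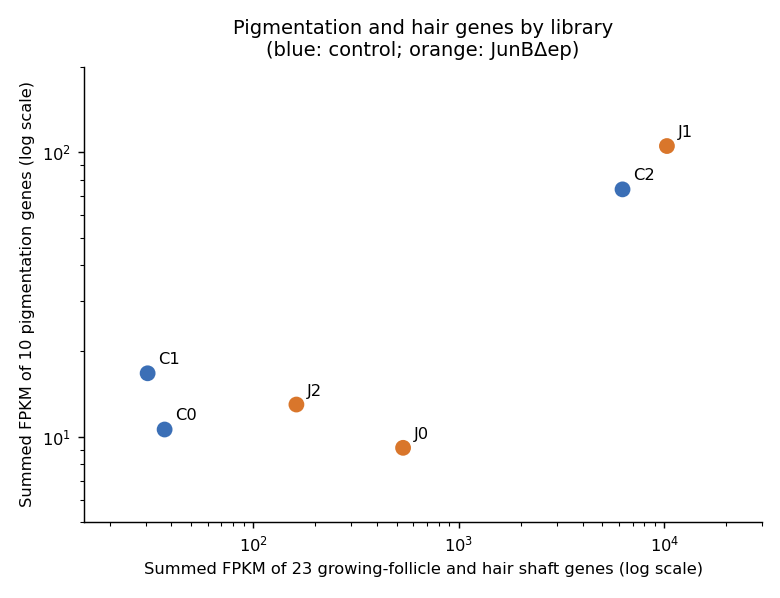
Summed FPKM of the 10 pigmentation genes (y axis, log scale) against the summed FPKM of 23 genes of the growing follicle and hair shaft (x axis, log scale), 1 point per library. C2 and J1 lie far from the rest on both axes, while C0, C1, J2 and J0 span 30.6 to 536 FPKM of hair genes at 9.13 to 16.7 FPKM of pigmentation genes.

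The correspondence was not complete below the top. The library labelled JunBΔep replicate 0 came next after these 2 for 18 of the 23 hair genes. Of the 7 pigmentation genes at 0.1 FPKM or more in every library it did so for 2, Tyr and Tyrp1, and it was the lowest of all for Mlana, Mc1r and Mitf. Its summed hair level of 536 FPKM was above that of control replicates 0 and 1, and its summed pigment level of 9.13 FPKM was below both. Because whole skin was measured, fewer melanocytes and less RNA per melanocyte cannot be told apart. Xist, an RNA made in females, had 0.0154, 27.6 and 0.0274 FPKM among the controls and 0.0112, 34.2 and 30.3 FPKM among the libraries labelled JunBΔep. It was thus high in 1 of 3 controls and 2 of 3 JunBΔep libraries, so this marker of sex is not balanced between the genotypes, and of the libraries highest in pigment genes it was high in JunBΔep replicate 1 and low in control replicate 2. The part of sex in the result was not tested. Xist was chosen after its values were seen.

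Of 28 other genes of the melanosome, 4 (14.3%) had control replicate 2 and JunBΔep replicate 1 as their highest libraries, beside 7.83% of all genes tested. Over the list the median log2 fold change was 0.07, with 19 positive and 9 negative, and 0 were called by limma. At an unadjusted p below 0.05 there was 1 of 28, a smaller share than the 7.56% of all genes, namely Rab27a, a GTPase that ties melanosomes to their motor, which was at 11.04, 8.34 and 14.6 FPKM in the controls and at 4.85, 4.78 and 7.41 FPKM in the JunBΔep mice (adjusted p = 0.400 from limma). The groups did not overlap for Rab27a, the only one of the 28, beside 14.8% of all genes. It is also made by many other secretory cells. Pmel, which forms the fibrils of the melanosome and is the other classic marker of melanocytes, was at 0.908, 2.33 and 17.2 FPKM in the controls and at 1.70, 26.4 and 1.78 FPKM in the JunBΔep mice. Trpm1, a channel gene that Mitf turns on, was at 0.167, 0.177 and 6.23 FPKM in the controls and at 0.291, 7.91 and 0.181 FPKM in the JunBΔep mice. The other 2 of the 4 were Myo5a, in a narrow range of 3.11 to 5.67 FPKM, and Gpnmb, a glycoprotein of melanosomes and macrophages, at 19.1, 6.29 and 33.9 FPKM in the controls and at 12.4, 19.1 and 6.05 FPKM in the JunBΔep mice. Of the 12 genes in the list that most cells use to deliver cargo to lysosome-like organelles (the Hps, AP-3 and BLOC-1 genes), 0 had these 2 libraries on top and 0 were called, counts near the 7.83% and 1.38% of all genes. Their log2 fold changes lay between -0.21 and 0.22, and their residual SDs between the 4.48th and the 49.5th percentile of all tested genes.

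Mlph, the adaptor between Rab27a and the motor Myo5a, was at 0.631, 0.677 and 23.9 FPKM in the controls and at 0.598, 2.39 and 10.1 FPKM in the JunBΔep mice. It was thus high in control replicate 2 like the members, but its next highest library was JunBΔep replicate 2.

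Over a list of 22 ligands, receptors and factors of the lineage the median log2 fold change was 0.10, with 13 positive and 9 negative. Limma called 0 of them, and 0 had an unadjusted p below 0.05. Among the ligands, Kitl, the growth factor of melanocytes, was at 3.64, 3.91 and 5.52 FPKM in the controls and at 1.83, 5.04 and 5.59 FPKM in the JunBΔep mice. Its receptor Kit, also made by mast cells, was at 2.27, 2.85 and 4.41 FPKM in the controls and at 2.72, 8.49 and 9.82 FPKM in the JunBΔep mice. Limma gave Kit an adjusted p of 0.722 at a log2 difference of 0.90 with a standard error of 0.50. Edn3, a ligand that draws melanocyte precursors into skin, was at 0.495 to 0.801 FPKM in the controls and at 0.00751, 0.629 and 0.289 FPKM in the JunBΔep mice. The agouti gene Asip, listed under its older symbol a, was at 0.599, 0.870 and 0.978 FPKM in the controls and at 0.840, 1.60 and 1.45 FPKM in the JunBΔep mice. Pomc, which encodes the precursor of α-MSH, stayed at 0.0839 to 0.244 FPKM in all 6 libraries. None of these 5 genes had control replicate 2 and JunBΔep replicate 1 as its highest pair, but 4 of the 22 genes of the list (18.2%) did, beside 7.83% of all genes. They were Lef1, Atrn, Corin and Tfap2b. Atrn, which acts with agouti on Mc1r, was at 4.18 to 5.72 FPKM in all libraries. Corin, a protease of the dermal papilla that limits agouti, was at 0.0782, 0.0768 and 0.669 FPKM in the controls and at 0.104, 0.458 and 0.127 FPKM in the JunBΔep mice. Tfap2b, a transcription factor, was at 9.88, 12.4 and 13.2 FPKM in the controls and at 4.33, 17.5 and 11.5 FPKM in the JunBΔep mice.

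Of the lineage factors, Lef1, which acts with β-catenin in hair matrix cells as well as in melanocytes, was at 0.427, 1.42 and 10.9 FPKM in the controls and at 1.19, 39.2 and 2.02 FPKM in the JunBΔep mice, the members' order at the top. Sox10, which marks melanocytes and Schwann cells, did not have that order and was at 3.39, 5.52 and 6.18 FPKM in the controls and at 0.733, 3.50 and 12.6 FPKM in the JunBΔep mice. Beside it, a list of 12 Schwann cell genes summed to 248, 310 and 176 FPKM in the controls and to 94.0, 154 and 287 FPKM in the JunBΔep mice, so the library labelled JunBΔep replicate 0 was the lowest for both. Pax3, another factor of the lineage, was at 0.193 to 0.835 FPKM, highest in that same library.

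Mitf is also made by mast cells and macrophages. The 10 mast cell genes summed to 196, 350 and 145 FPKM in the controls and to 256, 108 and 204 FPKM in the JunBΔep mice. The 8 macrophage genes summed to 593, 315 and 348 FPKM in the controls and to 782, 133 and 307 FPKM in the JunBΔep mice. Both sums were lowest in the library labelled JunBΔep replicate 1, where Mitf was highest, and no gene of either list was listed at 0. The 7 basal keratinocyte genes summed to 3833 to 6574 FPKM in the controls and to 3921 to 4360 FPKM in the JunBΔep mice. Krt14 was listed at 0 in the library labelled JunBΔep replicate 0, beside 837 to 1304 FPKM in the other libraries. Krt5 was at 3725 FPKM in that library, its highest value. The sum of 4108 FPKM there thus lacks Krt14 and cannot be compared with the others. Limma called 0 genes of the Schwann cell, mast cell, macrophage and basal keratinocyte lists, and 0 had an unadjusted p below 0.05. Of 10 skeletal muscle genes, 7 were called, all lower in JunBΔep mice, and their sum was 20799 to 27618 FPKM among the controls, against 1955 to 4888 FPKM in the other genotype. That count was 0 without any 1 control or without JunBΔep replicate 1, and 1 without JunBΔep replicate 0. The part of these cell types in the levels of the pigmentation genes was not tested.

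**Figure D4:**
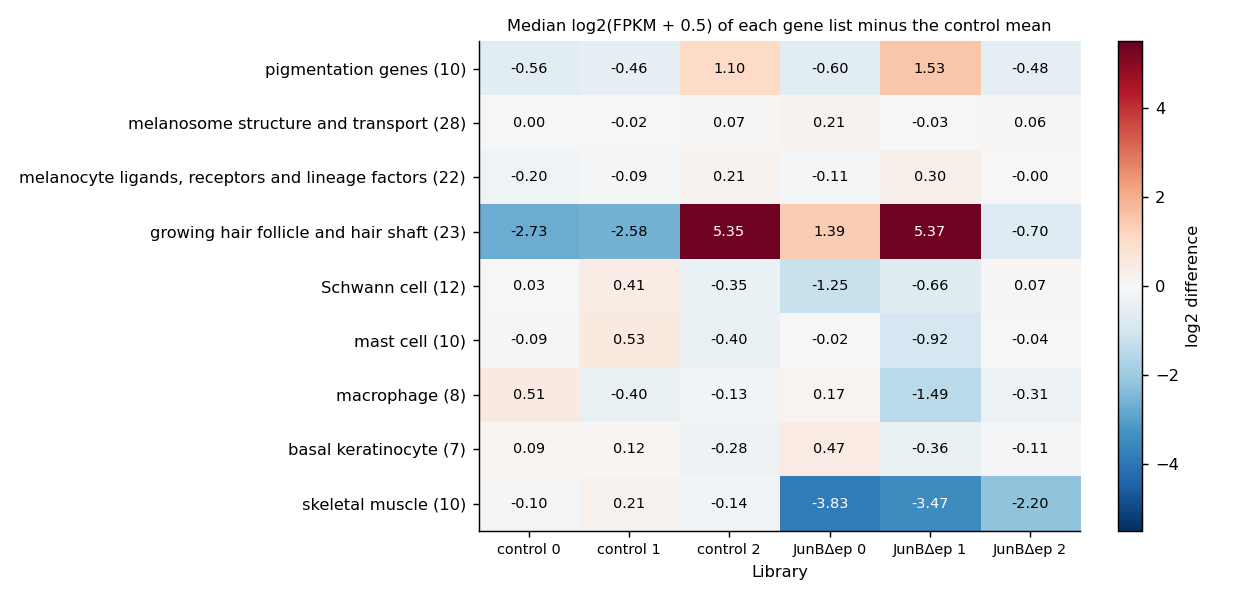
Median over each gene list of log2(FPKM + 0.5) minus the control mean (colour and printed value) for each list (rows, number of tested genes in brackets) and library (columns). The pigmentation genes and the growing hair follicle list are both highest in control 2 and JunBΔep 1, at 1.10 and 1.53 and at 5.35 and 5.37. The list of ligands, receptors and lineage factors is also highest in these, at 0.21 and 0.30. The muscle list is the only row with all 3 JunBΔep libraries below -2.

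The genes with profiles nearest to the pigment enzymes were found by the root mean square difference, over the 6 libraries, between the centred log2 profile of a gene and the mean profile of Tyr, Tyrp1 and Dct, among 13736 other genes that averaged 1 FPKM or more. The nearest 5 were Tagln3 at 0.231, Cybrd1 at 0.296, Bambi at 0.314, Pmel at 0.319 and Dclk3 at 0.352 log2 units. Tagln3 was at 0.515, 0.911 and 7.69 FPKM in the controls and at 0.673, 10.5 and 0.616 FPKM in the JunBΔep mice. Among the members that did not set the profile, Slc24a5 was nearest at 0.337 log2 units, and Mc1r and Mitf were farthest at 0.924 and 1.02 log2 units.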

How the data were processed

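The authors aligned strand-marked poly(A) reads to mm9 with TopHat 2.0.10, Bowtie 1.0.0 and SAMtools 0.1.19, and deposited FPKM for each gene in each mouse. The submitters' processing notes also name Cufflinks, with no role given. How FPKM were scaled between libraries, and whether strand was used, is not stated. The authors tested with DESeq2, on read counts not used here. Here, log2(FPKM + 0.5) was compared between genotypes with limma 3.58.1 (R 4.3.3), with an intensity trend, no block and two-sided tests, over the 17021 genes averaging 0.1 FPKM or more, and calls had a Benjamini-Hochberg adjusted p below 0.05. The code of the fit was also run on simulated data, and no result given here rests on that run. Mice are the replicates. The members, the 8 other gene lists and the tests were chosen with earlier results of these data known. Named by rule were the members, Junb, list genes and the 5 nearest profiles, and Xist was added after its values were seen. Asip and Adgre1 were matched through RefSeq synonyms. Positions are from GENCODE vM1 on mm9, and start regions from RefSeq on GRCm38.p6. No column was left unused. Python 3.11.15 with pandas 2.3.3 did the tabulation, and matplotlib 3.10.9 the plots. The closing section names the alternatives.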

Additional observations from a re-analysis of the deposited data

How the results depend on the processing

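With 3 mice per genotype and members that vary this widely, only large differences between the genotypes could be seen. Under all 17 alternatives (a pseudocount of 0.1 or 1, testing every gene above 0, a stricter filter of 1 FPKM that kept 6 members, 3 scalings, limma without trend or robust, 2 blocks and each library left out), 0 members were called, and the lowest adjusted p from limma was 0.526. No scaling moved the median of all genes by more than 0.037 on the log2 scale. Deviations from the group means correlated at 0.12, -0.23 and -0.43 in the same-numbered pairs. Control replicate 2 correlated best with the library labelled JunBΔep replicate 1, at 0.46. Deviations from a mean of 3 libraries constrain each other, so these values cannot show whether the replicate number pairs the mice. With the replicate block, 0 genes and 0 muscle genes were called, and it changed no member's call. With a block on the runs of sample numbers the counts were also 0 and 0, and the log2 fold change turned to -0.41 for Tyrp1, -0.69 for Dct, -0.25 for Slc45a2, -0.26 for Oca2, -0.28 for Slc24a5, -0.26 for Gpr143 and -0.086 for Mc1r. Without a filter, 1 muscle gene was called. Leaving out 1 library at a time gave 0 to 251 called genes and 0 to 8 muscle genes, with 0 genes without any 1 control or without the library labelled JunBΔep replicate 1 and 131 without JunBΔep replicate 0. The log2 fold changes then ran from -0.19 to 0.79 for Tyr, -0.68 to 1.71 for Tyrp1, -1.05 to 1.02 for Dct, -1.51 to 0.79 for Mlana, -0.50 to 0.80 for Slc45a2, -0.46 to 0.68 for Oca2, -0.51 to 1.10 for Slc24a5, -0.40 to 0.47 for Gpr143, -0.19 to 0.74 for Mc1r and -0.89 to 0.056 for Mitf. The cause was not tested.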

Other observations

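Many genes of the melanosome and lineage lists had another highest library than the members. The gene with the highest log2 fold change of each list is described here. The library labelled JunBΔep replicate 0 was highest for others too, among them Atp7a, Tpcn2, Erbb3 and Pax3. Slc7a11, a cystine transporter that supplies sulphur for red pheomelanin and also answers oxidative stress in many cells, was at 0.0649, 0.0444 and 0.493 FPKM in the controls (replicates 0, 1 and 2 in turn) and at 18.2, 0.448 and 0.101 FPKM in the JunBΔep mice. Nrg1, a growth factor for melanocytes and Schwann cells, was at 0.0985, 0.0573 and 0.694 FPKM in the controls and at 12.4, 0.527 and 0.204 FPKM in the JunBΔep mice. In both genes the library labelled JunBΔep replicate 0 was the highest and control replicate 2 the second. Their adjusted p from limma was 0.722 each, with log2 fold changes of 1.71 and 1.52, and the values of the groups overlapped. Without JunBΔep replicate 0, the library whose Junb level goes against its label, the log2 fold changes were 0.16 and 0.21, and without JunBΔep replicate 2 they were 2.65 and 2.31.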
